A study of Mus musculus with 4 samples.

Results

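The 7 genes described here are used as markers of excitatory neurons of the forebrain or load the transmitter glutamate into synaptic vesicles. They are the vesicular glutamate transporters Slc17a7, Slc17a6 and Slc17a8 (VGLUT1, VGLUT2 and VGLUT3), the transcription factors Neurod2 and Neurod6, the calmodulin-binding protein gene Nrgn and the protein kinase gene Camk2a. They were taken by their symbols from a table of 17778 genes, and 7 of 7 were found, each with at least 0.5 RPKM (a read count divided by gene length and by library depth) in both groups. mRNA was sequenced from the medial prefrontal cortices of C57BL/6 mice (C57BL/6J in the methods of the study) that had gone through chronic unpredictable mild stress (CUMS, 2 libraries) and of control mice without stress (Control, 2 libraries). The methods of the study describe male animals that were juvenile when the stress began, and only stressed mice that changed in every behavior test were taken as depression-like. RNA was isolated mouse by mouse, and the sources used here do not say whether a library holds 1 mouse. The table holds 1 mean per gene and group, averaged by the authors over the libraries. No value of a single library can therefore be shown, and no difference below could be checked over replicates here. By quantitative RT-PCR over several mice, the study reports Gad1, Mbp and Slc6a11 as lower and Hbb-b1 and Nr1d1 as higher in depression-like mice. It describes the tissues as those used for the sequencing. None of the 7 genes was among those it measured in this way.

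Glutamate is the main excitatory transmitter of the cortex, and a vesicular transporter pumps it into vesicles before release. Cortical and hippocampal projection neurons mainly use VGLUT1, whereas neurons of the thalamus, hypothalamus and brainstem mainly use VGLUT2, and VGLUT3 is found in scattered cholinergic, serotonergic and some GABAergic neurons. Neurod2 and Neurod6 are basic helix-loop-helix factors that guide the maturation of cortical excitatory neurons, Camk2a encodes the alpha subunit of a calcium-dependent kinase of excitatory synapses, and neurogranin, the product of Nrgn, binds calmodulin in their dendrites. In bulk tissue, more or fewer cells of a type and more or less RNA per cell cannot be told apart.

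The stretches before the start of transcription are shown for the 4 genes that stood highest in CUMS relative to Control, and for Slc17a6, the more abundant of the transporter genes that did not stand higher, so that the windows can be compared. They were read from RefSeq on GRCm38.p6, 5′ to 3′ on the strand of the gene, and capitals mark each CANNTG, the E-box that basic helix-loop-helix factors recognise, which reads the same on both strands. Each window covers the 250 bases before the RefSeq start and ends earlier where a GENCODE transcript of the gene begins. Slc17a7 lies at chr7:45163671-45163920 on the plus strand, Nrgn at chr9:37552905-37552995 on the minus strand, Neurod2 at chr11:98329649-98329895 on the minus strand, Neurod6 at chr6:55681264-55681513 on the minus strand, and Slc17a6 at chr7:51621580-51621829 on the plus strand.
Slc17a7: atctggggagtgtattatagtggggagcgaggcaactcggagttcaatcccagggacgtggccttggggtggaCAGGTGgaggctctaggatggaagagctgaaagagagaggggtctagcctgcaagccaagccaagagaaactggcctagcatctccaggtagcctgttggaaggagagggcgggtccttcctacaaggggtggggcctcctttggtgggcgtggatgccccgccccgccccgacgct
Nrgn: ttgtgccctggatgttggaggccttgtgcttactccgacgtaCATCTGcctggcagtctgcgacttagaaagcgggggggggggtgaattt
Neurod2: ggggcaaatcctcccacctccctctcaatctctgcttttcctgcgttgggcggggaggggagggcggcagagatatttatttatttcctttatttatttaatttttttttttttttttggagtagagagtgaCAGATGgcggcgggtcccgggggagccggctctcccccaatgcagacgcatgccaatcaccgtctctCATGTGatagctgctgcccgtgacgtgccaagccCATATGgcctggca
Neurod6: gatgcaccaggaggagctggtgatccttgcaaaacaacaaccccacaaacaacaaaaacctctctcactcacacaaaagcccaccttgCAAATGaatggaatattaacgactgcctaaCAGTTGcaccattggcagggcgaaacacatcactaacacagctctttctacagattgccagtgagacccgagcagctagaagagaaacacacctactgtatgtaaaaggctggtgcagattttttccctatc
Slc17a6: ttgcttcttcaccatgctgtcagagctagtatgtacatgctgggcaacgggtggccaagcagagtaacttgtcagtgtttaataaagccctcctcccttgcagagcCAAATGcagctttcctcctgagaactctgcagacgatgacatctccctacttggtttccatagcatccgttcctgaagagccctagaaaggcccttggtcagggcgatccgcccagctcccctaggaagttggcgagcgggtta

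CANNTG was found in the 250 bases of each of these genes, once in Slc17a7, Nrgn and Slc17a6, at 2 places in Neurod6 and at 3 places in Neurod2. It occurs in 66.2% of the 32851 promoter windows of the same length, so that its presence sets none of the 5 genes apart. The form CAGATG, or CATCTG on the other strand, which is among the CANNTG matches, was found 118 bases before the start of Neurod2 and 208 bases before that of Nrgn. It was not found in the windows of Slc17a7, Neurod6 and this start of Slc17a6, and it occurs in 14.4% of all windows. RefSeq gives a later start for Slc17a6 and for Slc17a8, and CAGATG or CATCTG was found 205 and 42 bases before these. The first start of Slc17a8 had CANNTG at 2 places, 157 and 108 bases before it. These matches are letters in a window and not measured sites.

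Levels are given per length (RPKM) and can therefore be compared between genes. In Control the order was Camk2a, Nrgn, Slc17a7, Neurod6, Neurod2, Slc17a6 and Slc17a8, and it was the same in CUMS. The intervals below were computed from fragment numbers estimated from the steps of the low values, an estimated 7347539 fragments for each library of Control and 7401925 for each of CUMS, and cover counting error only (exact, 95%). Camk2a stood at 828 RPKM in Control (821 to 834) and 958 RPKM in CUMS (951 to 965). Nrgn stood at 692 RPKM in Control (681 to 704) and 900.3 RPKM in CUMS (887 to 914). Slc17a7 stood at 635 RPKM in Control (628 to 643) and 791 RPKM in CUMS (783 to 799.6). These were among the most abundant mRNAs of the tissue, since they ranked 18, 33 and 41 of 17778 genes in Control and 15, 17 and 25 in CUMS.

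The factors were expressed at far lower levels. Neurod6 stood at 27.0 RPKM in Control (25.2 to 28.9) and 33.9 RPKM in CUMS (31.9 to 36.0). Neurod2 stood at 23.3 RPKM in Control (21.9 to 24.7) and 29.9 RPKM in CUMS (28.4 to 31.6). The other transporters came last. Slc17a6 stood at 2.50 RPKM in Control (2.12 to 2.91) and 2.44 RPKM in CUMS (2.06 to 2.84), which is about 159 and 156 fragments over the libraries of a group. Slc17a8 stood at 1.08 RPKM in Control (0.834 to 1.35) and 0.93 RPKM in CUMS (0.708 to 1.19), about 70 and 61 fragments. Neighbours in this order had counting intervals that did not overlap in either group. Whether they differ beyond the spread between mice could not be examined.

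**Figure D1:**
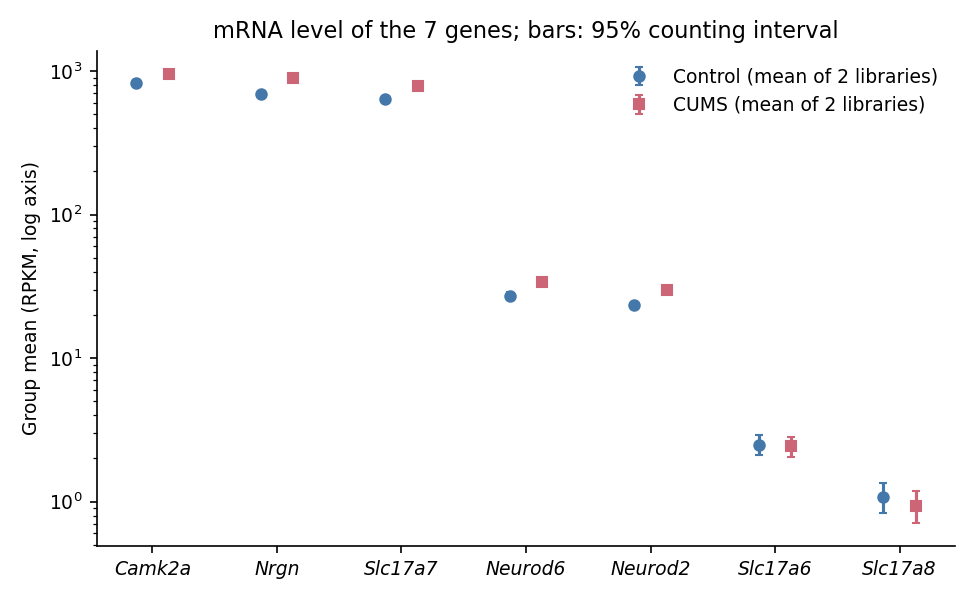
Group mean of each gene in RPKM on a log axis, for Control (circles) and CUMS (squares), with 95% counting intervals that are smaller than the symbols for the 5 genes on the left. Slc17a7, Nrgn and Camk2a lie between 635 and 958 RPKM, Neurod2 and Neurod6 between 23.3 and 33.9 RPKM, and Slc17a6 and Slc17a8 under 3 RPKM in both groups.

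By level, the vesicular glutamate transporter mRNA of these samples was almost wholly Slc17a7. It made up 99.4% of the summed RPKM of the 3 transporters in Control and 99.6% in CUMS. Slc17a6 made up 0.390% and 0.306%, and Slc17a8 made up 0.168% and 0.117%. The RPKM ratio of Slc17a7 over Slc17a6 was 255 in Control and 325 in CUMS, and that of Slc17a7 over Slc17a8 was 591 and 851. The low level of Slc17a6 beside Slc17a7 is the pattern that is known of neocortex.

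The comparison of CUMS with Control asked whether mRNAs of excitatory neurons differ in depression-like mice. The mRNAs of Nrgn, Neurod2, Neurod6, Slc17a7 and Camk2a were higher in CUMS, and those of the low transporters were not. Nrgn was 1.30 times as high in CUMS, a log2 ratio of 0.38 with a counting interval of 0.35 to 0.41. Neurod2 had a log2 ratio of 0.36 (0.25 to 0.48). Neurod6 had a log2 ratio of 0.33 (0.20 to 0.46), and Slc17a7 was 24.5% higher, a log2 ratio of 0.32 (0.29 to 0.34). Camk2a had the smallest log2 ratio of the genes that stood higher, 0.21 (0.19 to 0.23), which is 15.7% more than in Control. The interval of Camk2a lay under those of Nrgn, Slc17a7 and Neurod2 and overlapped that of Neurod6.

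For the other transporters the depth did not allow a direction. Slc17a6 had a log2 ratio of -0.04 (-0.37 to 0.29) and Slc17a8 a log2 ratio of -0.21 (-0.73 to 0.31). Both intervals include 0. The upper bound of Slc17a6 and the lower bound of Slc17a7 are the same to 2 decimals, and the interval of Slc17a8 reaches that of Slc17a7.

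**Figure D2:**
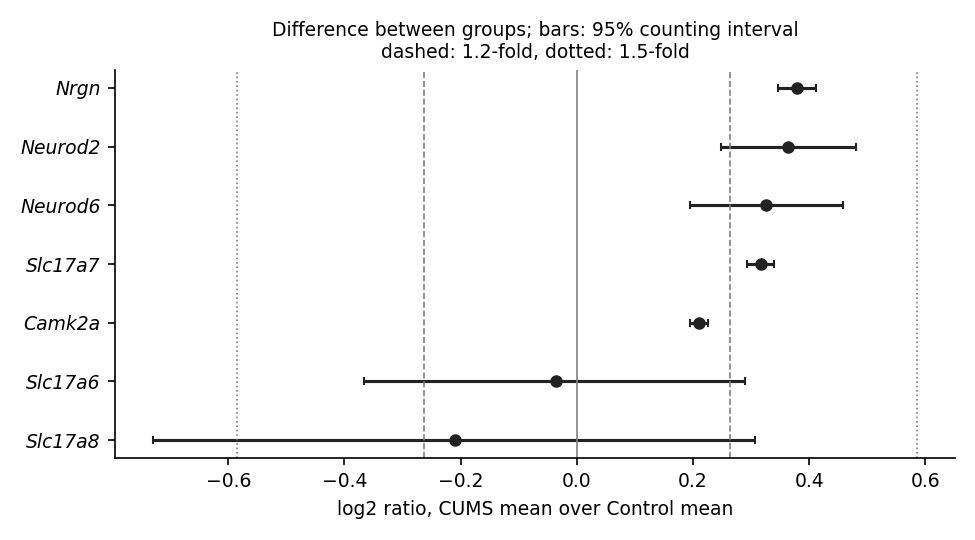
Difference between the groups for each gene, as log2 of CUMS over Control, with 95% counting intervals. Dashed lines mark a fold of 1.2 and dotted lines a fold of 1.5. Nrgn, Neurod2, Neurod6 and Slc17a7 lie to the right of the 1.2-fold line, Camk2a lies to its left above 0, and the intervals of Slc17a6 and Slc17a8 span 0.

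With 1 mean per group, a gene was called when its fold passed a threshold. Past the fold of 1.5 that the study used, 0 of the 7 genes were called in either direction, where 2.78% of the 14257 genes that reached 0.5 RPKM in CUMS or Control were called higher and 4.42% were called lower. The study also required a minimum probability of difference from NOISeq, which was not applied here. No test with replicates stands behind this count. Past a fold of 1.2, 4 of the 7 genes were called higher, which were Nrgn, Neurod2, Neurod6 and Slc17a7, and 0 were called lower, where 10.4% of all these genes were called higher and 14.6% lower. Among the 9397 genes that reached 5 RPKM in CUMS or Control, 4 of the 5 members that reach this level were called higher, against a background of 5.49% higher and 8.14% lower. Without a threshold, 5 of 7 were higher and 2 of 7 were lower in CUMS, where 46.6% of all genes were higher and 53.2% were lower. The genes had been grouped with earlier results of these data known, so that these counts are a description.

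The median log2 ratio of the 7 genes was 0.32, beside -0.02 over the 14257 genes. Among the 9397 genes of at least 5 RPKM the log2 ratio of Nrgn exceeded that of 98.1% of genes, that of Neurod2 97.8%, that of Neurod6 97.0%, that of Slc17a7 96.7% and that of Camk2a 91.0%. Of 61 genes with at least 500 RPKM in both groups, a limit set after the values had been seen, 39 were higher in CUMS with a median log2 ratio of 0.04 and a median size of 0.08 in either direction, and Nrgn and Slc17a7 had the 2 highest log2 ratios while Camk2a ranked 7.

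**Figure D3:**
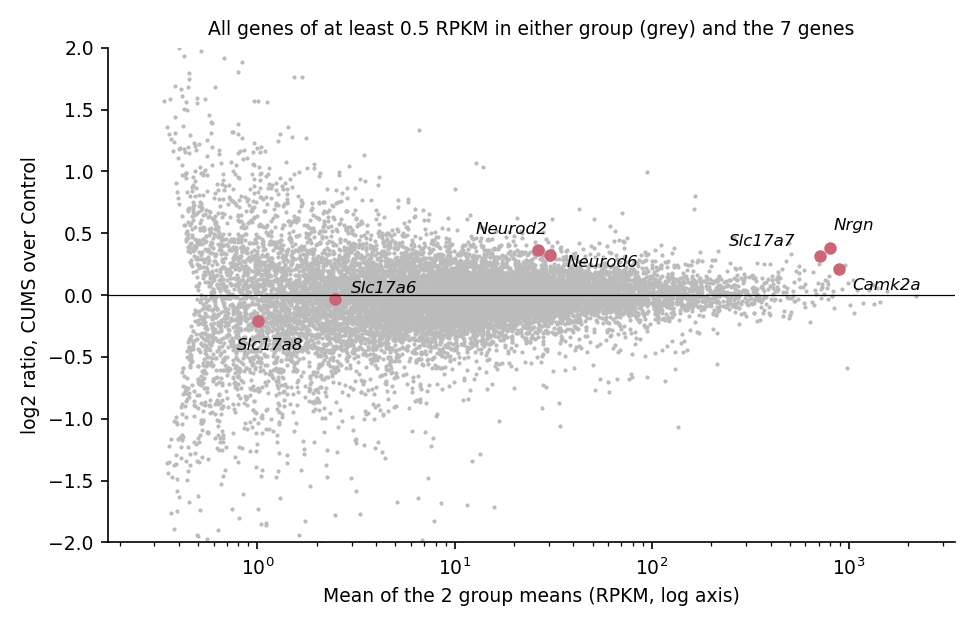
log2 ratio of CUMS over Control against the mean of both group means in RPKM (log axis) for 14257 genes (grey) and the 7 genes (red); 87 genes with a log2 ratio beyond 2 in size lie outside the plotted range. The grey cloud narrows towards high levels, and Nrgn, Slc17a7 and Camk2a lie at its upper edge on the right, whereas Slc17a6 and Slc17a8 lie inside it on the left.

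Stmn1 and Rtn1 were among the genes nearest to Slc17a7 in both control level and log2 ratio, by the distance over these 2 values on the log2 scale. Stmn1, which encodes a tubulin-binding protein, went from 613 RPKM in Control to 760.0 RPKM in CUMS (distance 0.0529). Rtn1 lay at a distance of 0.138. Nearest to Slc17a6 were Clec18a, with the same group means (distance 0), Slc38a9 (0.00891) and Zfp74 (0.0183). This nearness rests on 2 values per gene.

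Relatives of the 7 genes were next examined family by family. Of the other SLC17 transporters, 3 of 6 were in the table. Slc17a5, the lysosomal sialic acid transporter, stood at 6.80 RPKM in Control and 7.04 RPKM in CUMS, a log2 ratio of 0.05 (-0.17 to 0.27). Slc17a9, a vesicular nucleotide transporter, was under 0.5 RPKM in both groups, at 0.225 and 0.165 RPKM. Slc17a3 was at 0.02 RPKM in both groups, which is 1 fragment each. Among the NeuroD factors, Neurod1 stood at 2.84 RPKM in Control and 3.49 RPKM in CUMS, and its log2 ratio of 0.30 was close to those of Neurod2 and Neurod6 but had an interval that includes 0 (-0.08 to 0.69). Neurod4 was near absent, with 0.13 and 0.055 RPKM.

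The kinase CaMKII is built of alpha, beta, gamma and delta subunits. Camk2a made up 67.5% of the summed RPKM of their genes in Control and 70.2% in CUMS. Camk2b, the other main subunit in neurons, stood at 297 RPKM in Control and 300.2 RPKM in CUMS, a log2 ratio of 0.02 (-0.02 to 0.05) that lay under that of Camk2a. Camk2d and Camk2g had log2 ratios of 0.17 (0.07 to 0.27) and 0.04 (-0.03 to 0.10). Of the inhibitor genes of the kinase, Camk2n1 stood at 309 RPKM in Control and 370.1 RPKM in CUMS, a log2 ratio of 0.26 (0.23 to 0.29), and Camk2n2 had a log2 ratio of -0.06 (-0.16 to 0.05). Of these 5 relatives 4 were higher and 1 was lower, with a median log2 ratio of 0.04, and 0 passed a fold of 1.2 in either direction.

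Neurogranin binds calmodulin. Of the calmodulin genes, Calm2 had a log2 ratio of 0.25 (0.21 to 0.28) and Calm3 a log2 ratio of 0.09 (0.07 to 0.12). The log2 ratio of Nrgn lay above both, and the RPKM ratio of Nrgn over Calm2 was 0.795 in Control and 0.872 in CUMS. Gap43, which encodes a calmodulin-binding protein of growing axons, had a log2 ratio of 0.16 (0.08 to 0.23) and Pcp4 one of 0.05 (-0.03 to 0.14). Pcp4l1 was the exception with 120 RPKM in Control and 86.7 RPKM in CUMS, a log2 ratio of -0.47 (-0.55 to -0.38). Of the 6 genes of this list, Pcp4l1 alone passed a fold of 1.2.

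Genes that supply or clear glutamate did not stand higher as the transporter Slc17a7 did. Of 14 genes, 5 were higher and 9 were lower in CUMS, with a median log2 ratio of -0.02, to 2 decimals that of all genes. On the supply side, the mitochondrial glutamate carrier Slc25a22 had a log2 ratio of 0.15 (0.10 to 0.20). Gls2, a glutaminase gene, had a log2 ratio of -0.16 (-0.38 to 0.07), and the enzymes Glud1, Got1 and Got2 had log2 ratios of -0.06, -0.02 and -0.02.

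Glutamine moves from astrocytes to neurons as the precursor of glutamate. Glul, the glutamine synthetase of astrocytes, stood at 684 RPKM in Control and 587 RPKM in CUMS, a log2 ratio of -0.22 (-0.25 to -0.20). The amino acid transporters Slc38a1 and Slc38a2 had log2 ratios of -0.22 (-0.29 to -0.15) and -0.31 (-0.41 to -0.21), and Slc38a3 had one of 0.06 (-0.04 to 0.17). Among the carriers that take glutamate up from the synapse, the astrocyte genes Slc1a2 and Slc1a3 had log2 ratios of 0.05 (0.02 to 0.07) and 0.11 (0.07 to 0.15), and the neuronal gene Slc1a1 had one of -0.01 (-0.10 to 0.08). Slc1a6, which is mainly a transporter of cerebellar Purkinje cells, was low, at 6.31 and 4.53 RPKM, with the lowest log2 ratio of the list, -0.48 (-0.81 to -0.16). Slc1a6 and Slc38a2 were the 2 genes past a fold of 1.2, both lower.

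Other genes of cortical excitatory neurons lay on the side of the 5 higher members. All 9 genes of this list were higher in CUMS, with a median log2 ratio of 0.29, and 5 passed a fold of 1.2. Emx1, a homeobox gene of the developing pallium, had the highest log2 ratio, 0.65 (0.35 to 0.94), at 9.28 RPKM without stress and 14.5 RPKM after CUMS. The factors Bhlhe22 and Tbr1 had log2 ratios of 0.52 (0.37 to 0.67) and 0.30 (0.21 to 0.38). The synaptic and signaling genes Chn1, Itpka, Sv2b and Nptx1 had log2 ratios of 0.29, 0.24, 0.23 and 0.15, and their intervals lay above 0. Arpp21 had the lowest, 0.03 (-0.01 to 0.08). The list was written with earlier results of these data known, so that its direction is no independent support for that of the members.

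Genes that all neurons use had a lower median. Of 15 pan-neuronal genes 13 were higher and 2 were lower, with a median log2 ratio of 0.09. The highest was Stx1a, a syntaxin of the release machinery, at 0.35 (0.29 to 0.40), and the lowest was the neurofilament gene Nefl at -0.03 (-0.09 to 0.03). Syt1 (0.21, 0.18 to 0.24), Snap25 (0.20, 0.17 to 0.23) and Stmn2 (0.19, 0.14 to 0.25) had intervals that overlapped that of Camk2a. The interval of Stx1a lay above that of Camk2a, and those of the other pan-neuronal genes lay under it. Set to the pan-neuronal median, the log2 ratio was 0.29 for Nrgn, 0.27 for Neurod2, 0.23 for Neurod6, 0.23 for Slc17a7 and 0.12 for Camk2a. These pan-neuronal genes summed to 4982 RPKM without stress and 5351 RPKM after it.

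Markers of other neurons and of other brain regions differed between the groups as well, and their part in the result was not tested. All 9 genes of the GABAergic list were lower in CUMS, with Gad2 lowest at -0.88 and a summed level of 477 RPKM in Control and 334 RPKM in CUMS. This list includes Gad1, Gad2 and Slc32a1, which the study lists as lowered, and is not independent evidence of a direction. Slc32a1 encodes the vesicular transporter of GABA. The RPKM ratio of Slc17a7 over Slc32a1 was 8.28 without stress and 17.7 after CUMS, 2.14 times as high, to which Slc32a1 contributed more (a log2 ratio of -0.78, -0.86 to -0.70) than Slc17a7. Of 8 genes listed for cortical interneuron classes, 7 were higher, from -0.10 for Reln to 0.51 for Vip, with sums of 903 and 1088 RPKM. Cck alone went from 421 RPKM in Control to 565 RPKM in CUMS, which is most of the difference between these sums. Whether the listed genes are confined to interneurons was not examined, so that the sums are no measure of interneuron mRNA. The intervals of Pvalb, Sst, Htr3a, Cnr1 and Reln included 0. Calb2, Lhx6 and Dlx1, which cortical interneurons also express, stood in other lists, with log2 ratios of -0.92, -0.43 and -0.60. The direction therefore rests on how these genes were divided among lists.

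Slc17a6 is used by neurons of regions whose marker lists had medians below 0. Of 10 thalamus genes 8 reached 0.5 RPKM, of which 7 were lower and 1 was higher, with Lef1 highest at 0.18 and Prkcd lowest with 17.2 RPKM in Control and 4.30 RPKM in CUMS, and with sums of 66.3 RPKM in Control and 34.8 RPKM in CUMS. Prkcd and Calb2 held 53.3 and 23.4 RPKM of these sums. Without them, a choice made after the values were seen, the other 8 genes summed to 12.96 and 11.4 RPKM, 6 reached 0.5 RPKM with a median log2 ratio of -0.29, and the intervals of 5 of these 6 included 0. Tcf7l2, a defining factor of thalamic neurons, stood at 1.61 and 1.31 RPKM (log2 ratio -0.29, -0.74 to 0.17). Of the septum and hypothalamus genes 14 of 15 were in the table and 9 reached 0.5 RPKM, of which 8 were lower and 1 was higher, with sums of 45.9 and 20.1 RPKM. Gal was lowest with 23 and 1 fragments, a log2 ratio of -4.46 (-9.90 to -1.91), and Pmch was highest with 5 and 8 fragments. In this list Agrp was listed at the stand-in for 0 in Control and Otp in CUMS. Mitral and tufted cells of the olfactory bulb are excitatory neurons, and their genes Doc2g, Eomes, Tbx21 and Cdhr1 had log2 ratios of -1.68, -1.61, -1.09 and -0.56, with sums of 23.2 and 10.4 RPKM. The log2 ratio of Slc17a6 was -0.04 beside these lists, whose medians were -0.52 for thalamus, -1.27 for septum and hypothalamus and -1.35 for the olfactory bulb cells. The study lists Prkcd, Calb2, Zic1 and Doc2g of these lists as lowered in the same samples, so that the lists are not independent evidence of a direction. Their part in the value of Slc17a6 was not tested.

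Of the genes of cholinergic and serotonergic neurons, some of which use VGLUT3, 5 of 6 were in the table and 3 reached 0.5 RPKM, all lower in CUMS. Chat stood at 2.75 RPKM in Control and 0.945 RPKM in CUMS, a log2 ratio of -1.54 (-2.12 to -1.02). Slc18a3 and Slc5a7, which load acetylcholine into vesicles and take up choline, had log2 ratios of -1.83 (-2.47 to -1.18) and -0.78 (-1.19 to -0.35). Tph2 and Slc6a4 of serotonergic neurons were under 0.5 RPKM in both groups, with 2 and 13 fragments and with 5 and 3 fragments. On these few fragments Tph2 was higher in CUMS, with a log2 ratio of 2.70 (0.55 to 5.88). Slc6a4 had a log2 ratio of -1.05 (-3.43 to 1.61). The interval of Slc17a8 (-0.73 to 0.31) lay above those of Chat and Slc18a3 and overlapped that of Slc5a7.

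Slc17a7, Neurod6 and Camk2a are also strong in hippocampus, and genes of striatum were examined as well. Whether any of the members is confined to excitatory neurons, or to those of cortex, was not examined. The limits of the dissection are not given in the sources used here. Of 7 hippocampus genes 5 reached 0.5 RPKM, of which 4 were lower and 1 was higher, from -1.35 for C1ql2 to 0.56 for C1ql3. C1ql3 made up most of the summed level of this list, 59.4 RPKM in Control and 79.9 RPKM in CUMS, and is also expressed in cortex. All 10 striatal genes were lower, from -0.46 for Penk to -0.10 for Tac1, with sums of 562 and 463 RPKM. All 10 oligodendrocyte genes were lower as well, from -0.94 for Ermn to -0.22 for Ugt8a, with sums of 1958 and 1333 RPKM, and this list includes Mbp, Mobp and Cldn11, which the study lists as lowered. The part of these cells in the higher values of the 5 members was not tested.

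**Figure D4:**
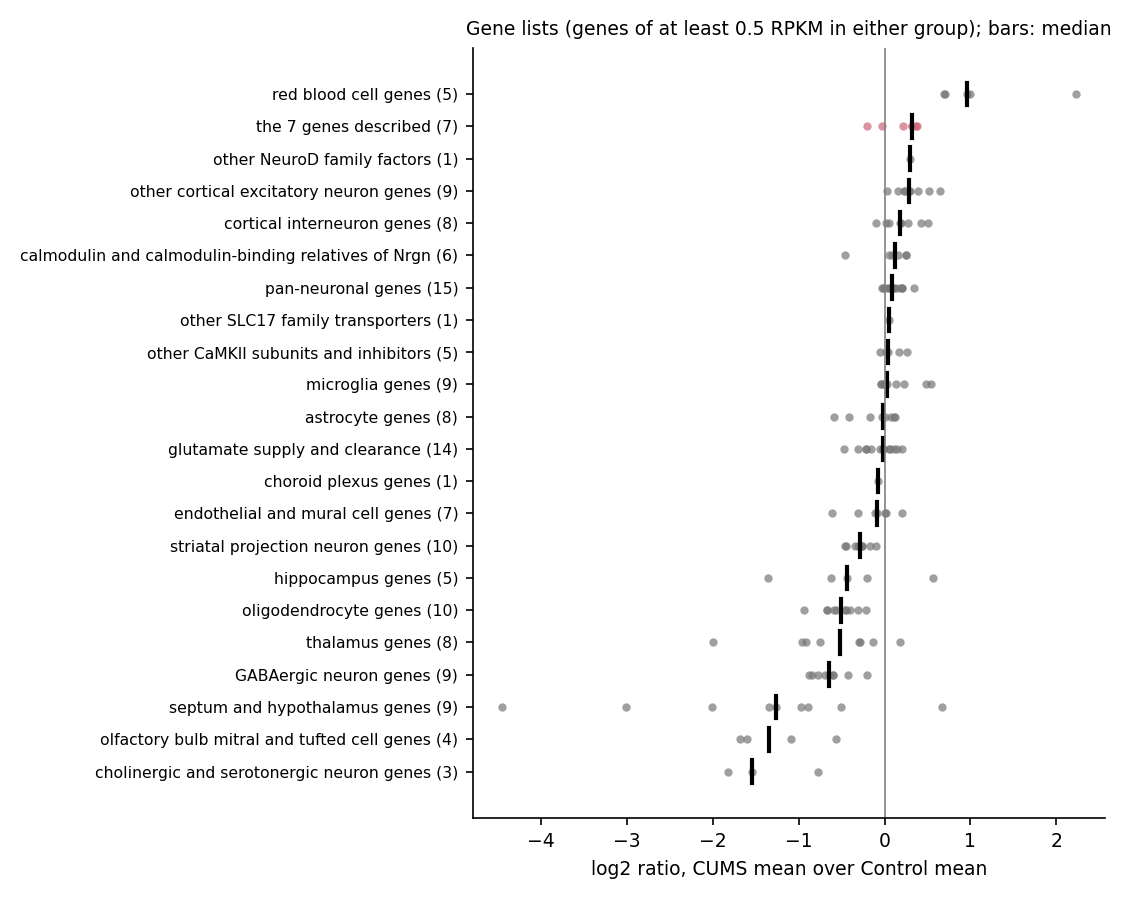
log2 ratio of CUMS over Control for each gene (points) of the 7 genes described (red) and of the other lists (grey), for genes that reached 0.5 RPKM in CUMS or Control, with the median as a black bar and the number of genes in brackets. The medians run from -1.54 for the cholinergic and serotonergic list to 0.97 for red blood cell genes. In the former list only cholinergic genes reached 0.5 RPKM. The 7 genes have a median of 0.32 next to that of the other cortical excitatory genes (0.29).

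On the genome build of the files, GRCm38 (mm10), the 7 genes lie on 6 chromosomes according to RefSeq. Slc17a7 (gene 72961) spans chromosome 7 from 45163921 to 45176139 and Slc17a6 (gene 140919) the same chromosome from 51621830 to 51671126. Slc17a8 (gene 216227) lies on chromosome 10 from 89574020 to 89621249, Neurod2 (gene 18013) on chromosome 11 from 98325415 to 98329645, and Neurod6 (gene 11922) on chromosome 6 from 55677818 to 55681263. Nrgn (gene 64011) lies on chromosome 9 from 37544493 to 37552745 and Camk2a (gene 12322) on chromosome 18 from 60925307 to 60988152. In GENCODE M21 no exon of another gene shares a base with an exon of these 7 genes. The annotation that the authors counted with was not given, so that this was not checked for the deposited values.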

How the data were processed

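The deposited table gave RPKM per gene, which the authors had averaged over the 2 libraries of each group. Per the labels and the methods of the study, mRNA was captured with oligo(dT) beads, read from both ends and aligned to mm10 with TopHat 1.0.12 and Bowtie 0.11.3, and only unique alignments to genes entered the values. Which annotation was used, and whether counting was stranded, is not given in the sources used here. Genes under 0.5 RPKM are described as removed, but the table holds values down to 0.01. The gene length used for RPKM was deposited as well (another measurement, in bases). Columns with the authors' own ratio, direction and NOISeq probability were not used. A value of 0.01 stands in for 0 (590 Control and 619 CUMS genes).

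Ratios are log2 of CUMS over Control with no pseudocount. Summed fragments were estimated from low values: genes shorter than 1000 bases with a product of RPKM and length under 350 were used, and the step between 20 and 200 with the smallest mean distance to whole multiples was taken (68.05 in Control from 406 values, 67.55 in CUMS from 392). Products lay within 0.15 of a whole multiple in 85.7% and 85.2% of values. The estimated depth assumes libraries of equal depth within a group and is lower than the read numbers of the study, a difference that stayed unexplained here. With more fragments the intervals would be narrower. Exact Clopper-Pearson 95% intervals of ratios and exact Poisson intervals of levels cover counting error only; PCR duplicates could not be removed. The step finder and the intervals were tested on simulated data with counting error only, at a depth close to the estimated one. That test cannot check the true depth of the libraries or the spread between mice.

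The members and the 21 other gene lists were chosen with earlier results of these data known. Named were the 7 members, every gene of the glutamate supply and cortical excitatory lists and of the shortest lists (6 genes or fewer), the highest and lowest gene of each other list, and the 3 genes nearest to Slc17a7 and Slc17a6. A few further genes (Tcf7l2, and Agrp and Otp at the stand-in for 0) were added for their role or after their values were seen, and a few genes that this rule names are not reported here. A filter of 0.5 RPKM in either group was used for counts and medians. limma was not run, since it needs a value per library. Sequences and coordinates are from RefSeq (GRCm38.p6), where 7 of 7 members matched by gene identifier, and a promoter entry was given for 6. Python 3.11.15, numpy 2.4.6, pandas 2.3.3 and scipy 1.17.1 were used.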

Additional observations from a re-analysis of the deposited data

How the results depend on the processing

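No paired analysis was possible because each group has a single averaged column, and for the same reason fits that leave out a replicate, a replicate block and limma were not run. The 7 log2 ratios were recomputed under several scalings of CUMS and with pseudocounts of 0.5 and 1 RPKM, and 39 of the 42 values stayed inside the counting interval. Under the scalings, 0 of 28 values changed sign, which follows from the small size of the shifts, and a pseudocount cannot change a sign. These counts are therefore no check of how firm the ratios are. Scaling CUMS to a pan-neuronal median of 0 removes 0.09 from every log2 ratio by construction and gave 0.23 for Slc17a7, 0.29 for Nrgn and 0.12 for Camk2a. The other scalings moved log2 ratios by -0.0076, 0.015 and 0.0083. The median of the 7 genes ranged from 0.23 to 0.33. The count of members called higher was 0 at a fold of 1.5, 4 at a fold of 1.2 and 0 at a fold of 2, so that it rests on the threshold. Of 123 recomputed medians of the other lists, 6 changed sign and 2 became 0, 1 of these by construction. Among the 6 were the medians of the NeuroD relatives (-0.47 with no filter on low values, over 2 genes) and of the CaMKII relatives (-0.05 after pan-neuronal scaling). Depth limits Slc17a6 and Slc17a8, which rest on 315 and 131 fragments in all. The spread between mice is unknown for every value.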

Other observations

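Lists of non-neuronal cells were computed from the same table. Of 8 astrocyte genes 4 were higher and 4 were lower in CUMS, with a median log2 ratio of -0.01, from -0.59 for Fgfr3 to 0.12 for Aqp4. Of 9 microglia genes 5 were higher and 4 were lower, with a median of 0.03, from -0.05 for C1qb to 0.54 for P2ry12. Of 7 endothelial and mural cell genes 3 were higher and 4 were lower, with a median of -0.09, from -0.61 for the tight junction gene Cldn5 to 0.20 for Vwf.

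All 5 red blood cell genes, of which the study lists Hba-a1, Hba-a2 and Hbb-b1 as raised, were higher in CUMS, with a summed level of 222 RPKM in Control and 385 RPKM in CUMS. Hba-a1, Hba-a2 and Hbb-b1 had log2 ratios of 0.70, 1.00 and 0.70, and Alas2, which starts heme synthesis in red cells, had one of 0.97 (0.40 to 1.56). Hbb-b2 rested on 1 and 5 fragments, a log2 ratio of 2.23 (-0.85 to 7.87). Globin genes have near-identical copies, so that the division of reads among them is uncertain. Choroid plexus genes were near absent. Kl stood at 0.93 and 0.88 RPKM, Ttr had 1 and 0 fragments, Folr1 5 and 6, and Kcnj13 0 and 8.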
